A study of Mus musculus with 89 samples.

Results

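The step from the lowest to the highest dose of CuO NH3 was examined in the lungs of PBS-challenged mice, by setting the 3 samples exposed to 40 μg/mouse against the 3 samples exposed to 2.5 μg/mouse. These 6 samples, of 89 in the series, were taken by their labels (material CuO NH3, challenge PBS, dose 40 or 2.5), and the 4 samples exposed to 10 μg/mouse are shown between them. CuO NH3 is copper oxide nanomaterial with a methylaminated surface, one of 3 surface-modified derivatives of core CuO. All groups, controls included, were female BALB/c mice aged 6 to 8 weeks that had been sensitised with ovalbumin (OVA) and an aluminium adjuvant. The PBS-challenged mice then received PBS without OVA, and dispersed CuO NH3 or, in the 7 control samples, vehicle alone, by oropharyngeal aspiration on 4 consecutive days, and lung was taken 24 h after the last dose. The OVA-challenged mice compared further below received OVA together with the dispersed CuO NH3 in these aspirations. The mice exposed to CuO PEG or core CuO that are compared there were PBS-challenged. Doses are masses of material given at each administration, and the copper content of the materials differs. Blood had been drawn and the lungs lavaged before the tissue was cut, and each sample was an independent pool of 2 lung RNA samples, so the spread given here is that between pools and not between single mice. The mice of both dose groups and of the controls were thus sensitised but not challenged with the allergen, and no unsensitised group is used here.

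Levels are log2 intensities on the array, after the effects of dye, slide and array position were removed, and they can be compared between samples for 1 gene but not between genes. A difference between doses is a log2 fold change with its standard error (SE) from limma, and a gene is said to have risen or fallen at an adjusted p under 0.05 with a log2 fold change above 0.58 in size, which is about 1.5-fold. In the 10 PBS-challenged samples exposed to CuO NH3, between 48.3% and 60.9% of spots were well above background and no spot was saturated. Among the OVA-challenged samples compared further below, replicate 3 at 2.5 μg/mouse of CuO NH3 had 44.6%. The tissue carried the defining transcripts of lung: Sftpc, the surfactant protein of alveolar type 2 cells, had mean levels of 17.60 ± 0.24 (SD, n = 7) in controls, 17.39 ± 0.14 (n = 3) at 2.5 and 17.53 ± 0.09 (n = 3) at 40 μg/mouse. Ager, of alveolar type 1 cells, had mean levels of 14.61 ± 0.12, 14.48 ± 0.17 and 14.42 ± 0.17 in the same groups.

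Copper oxide particles dissolve in part in the acid compartments of macrophages and epithelial cells and release copper ions, and cells answer excess metal by transcribing metallothioneins, small cysteine-rich proteins that bind it. An injured lung is known to recruit neutrophils and then monocytes that become macrophages, to lose differentiated airway epithelial cells such as the club cell, and to enter a phase of cell division and matrix deposition. Transcripts of each of these processes were among those that moved between the doses.

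Between 2.5 and 40 μg/mouse, 1686 of 22911 genes were called (7.36% of the genes tested), of which 904 rose (3.95%) and 782 fell (3.41%). The highest rises were those of Retnlb, a resistin-like protein secreted by epithelium, and Arg1, the arginase of alternatively activated macrophages, at log2 fold changes of 4.41 and 3.74. The deepest falls were those of Scgb3a2, a secretoglobin made by club cells, at -3.29, of Clca1, a secreted protein of goblet cells, at -3.19, and of Cfd, complement factor D, at -3.18. Of the genes that rose, 311 changed by more than 1 on the log2 scale and 30 by more than 2, and of those that fell 161 and 17. The median log2 fold change over all genes was -0.00 and the median SE was 0.11. In 894 of the 904 genes that rose and in all 782 that fell, the 3 samples at 40 μg/mouse lay entirely to one side of the 3 at 2.5, which was also true of 41.4% of all genes.

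**Figure D1:**
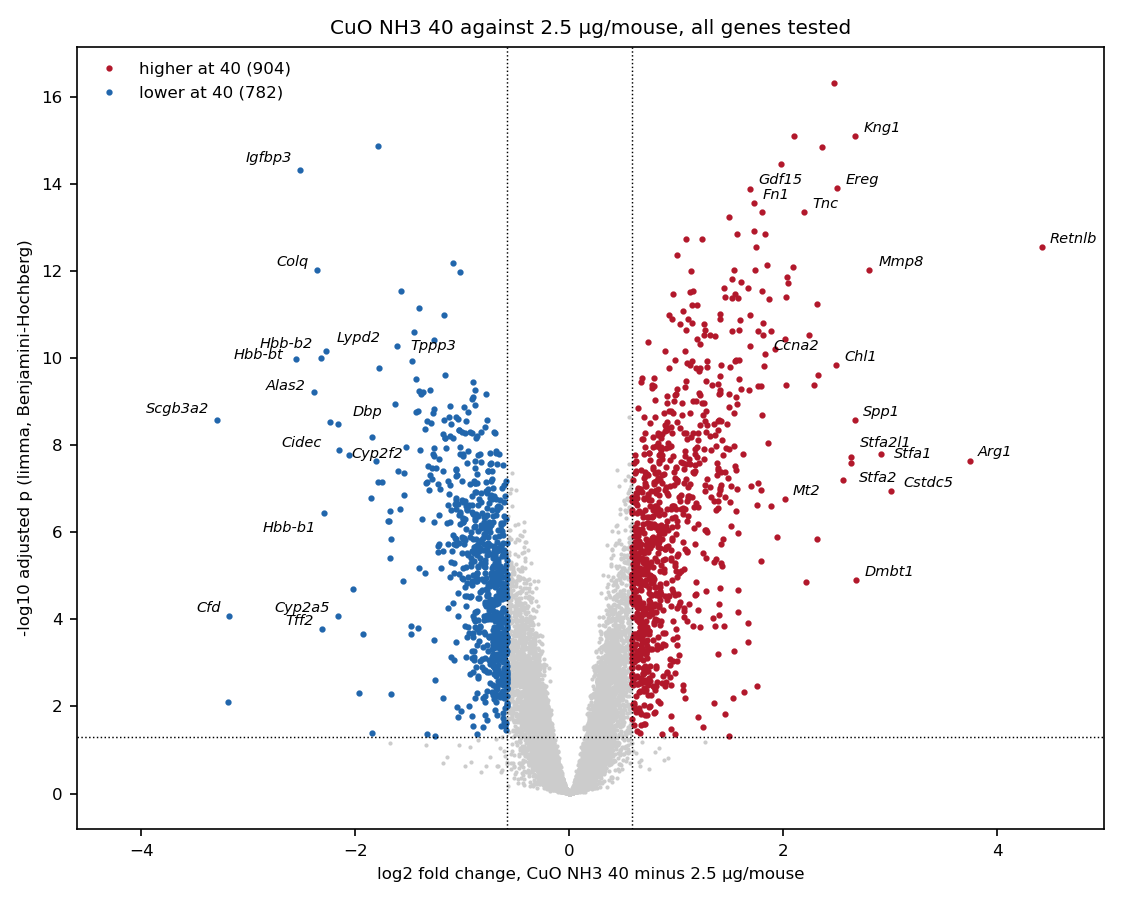
Log2 fold change (40 minus 2.5 μg/mouse) of every gene tested on the x axis against -log10 of the adjusted p on the y axis, with the 904 genes that rose in red, the 782 that fell in blue and the call limits as dotted lines. Retnlb and Arg1 stand farthest to the right and Scgb3a2, Clca1 and Cfd farthest to the left.

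Retnlb was at levels of 6.73, 6.24 and 7.20 in the samples exposed to 2.5 μg/mouse, at 7.29, 8.05, 8.07 and 7.51 at 10 and at 11.18, 11.19 and 11.03 at 40, against 5.61 to 6.58 (median 6.09) in the 7 controls. The samples at 40 μg/mouse stood together, far above every other sample, and the fold change was 4.41 ± 0.38 (SE, adjusted p = 2.8e-13), about 21.3-fold. Arg1 was at 8.39, 7.17 and 7.72 at 2.5, at 8.31, 8.67, 9.46 and 8.44 at 10 and at 11.64, 11.39 and 11.47 at 40 μg/mouse, a log2 fold change of 3.74 ± 0.49 (adjusted p = 2.3e-08). Both genes overlapped or nearly overlapped between 2.5 and 10 μg/mouse, and their rise from 2.5 to 10 was not called (log2 fold changes of 1.01 and 0.96), whereas their rise from 10 to 40 was (3.41 and 2.78).

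The 12 largest rises among well measured genes with an official symbol also held stefins of the Stfa family and their relative Cstdc5, which are cysteine protease inhibitors of myeloid cells, Mmp8, the neutrophil collagenase, Dmbt1, a mucosal scavenger receptor, Kng1, the kininogen precursor, Spp1 (osteopontin), Ereg, an epidermal growth factor receptor ligand, and Chl1, a cell adhesion molecule. Their log2 fold changes ran from 2.49 for Chl1 to 3.01 for Cstdc5. Stfa1, Stfa2, Stfa2l1 and Cstdc5 are close paralogs whose probes may share transcripts, so they were not taken as separate observations. The 3 probes of Kng1 did not give 1 value but ranged in log2 fold change from 1.18 to 4.37. Ereg was not well above background in any sample at 2.5 μg/mouse, so its rise is given as at least 4.9-fold.

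Metallothioneins rose with dose while the other genes of copper handling were not called. Of 19 measured genes of copper uptake, export, chaperoning and storage, 2 rose and 0 fell, with a median log2 fold change of -0.15, and the 2 were Mt1 and Mt2. Mt2 was at levels of 12.88, 12.00 and 12.82 at 2.5, at 13.03, 13.47, 13.61 and 13.67 at 10 and at 14.58, 14.49 and 14.66 at 40 μg/mouse, against 11.25 to 12.12 (median 11.52) in controls. The 3 dose groups of Mt2 shared no range and rose in the order of dose, with replicate 2 at 2.5 within the controls, and the step from 2.5 to 40 was 2.01 ± 0.29 (adjusted p = 1.7e-07). Mt1 was at 10.46, 10.22 and 10.79 at 2.5 and at 11.92, 12.03 and 12.14 at 40 μg/mouse, a log2 fold change of 1.54 ± 0.20 (adjusted p = 1.1e-08). For the copper importer Slc31a1 and the copper exporters Atp7a and Atp7b the values were -0.19, -0.04 and -0.37, none of them called, and for Mtf1, the zinc-sensing factor that drives metallothionein transcription, -0.16.

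The 250 bases before the start of Mt2 and Mt1 are shown because these are the 2 copper handling genes that moved and because metallothionein promoters are known for metal response elements. Sequences are those of RefSeq (GRCm38.p6), written 5′ to 3′ on the strand of the gene: Mt2 lies at chr8:94172368-94172617 and Mt1 at chr8:94178839-94179088, both on the plus strand. Capitals mark matches to TGCACNC or TGCGCNC on either strand.
Mt2: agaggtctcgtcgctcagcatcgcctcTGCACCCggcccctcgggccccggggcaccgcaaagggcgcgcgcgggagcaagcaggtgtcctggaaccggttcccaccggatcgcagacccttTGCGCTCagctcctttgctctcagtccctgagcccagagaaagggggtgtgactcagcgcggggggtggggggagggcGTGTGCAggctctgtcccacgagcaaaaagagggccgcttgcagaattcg
Mt1: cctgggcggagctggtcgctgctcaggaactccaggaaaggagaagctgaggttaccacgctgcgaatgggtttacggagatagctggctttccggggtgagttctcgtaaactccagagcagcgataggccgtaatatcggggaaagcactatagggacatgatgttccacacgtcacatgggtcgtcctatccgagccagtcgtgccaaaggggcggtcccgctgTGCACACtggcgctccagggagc
Mt2 held 3 matches, beginning at positions -223, -128 and -50 relative to the gene's start, and Mt1 held 1, at -23. Only this window before the annotated start used was searched, so the counts are not the number of elements of either gene. At least 1 match stood in 21.4% of 32851 mouse promoters of the same length and 2 or more in 5.17%, and a match describes the letters only.

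**Figure D2:**
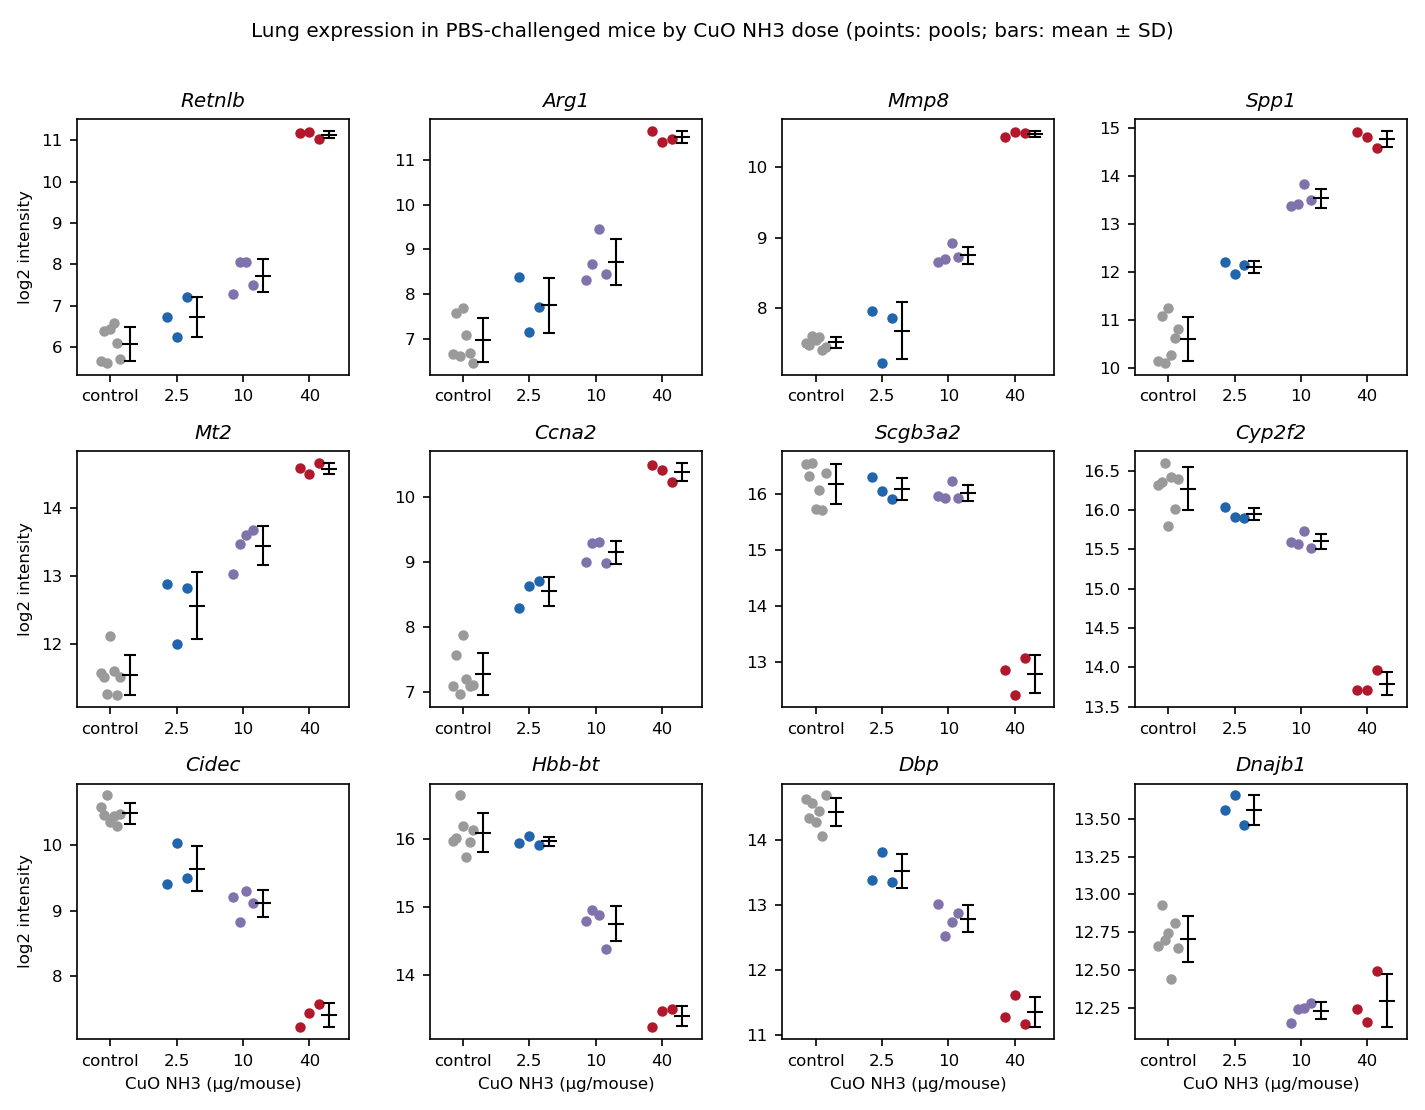
Log2 intensity of 12 genes (y axis) in each sample of the controls and of the mice exposed to 2.5, 10 and 40 μg/mouse CuO NH3 (x axis), with mean ± SD beside the points. Retnlb, Arg1 and Scgb3a2 change mainly between 10 and 40 μg/mouse, Hbb-bt falls over both steps, and Dnajb1 is highest at 2.5 μg/mouse.

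Most of the change lay above 10 μg/mouse. From 2.5 to 10 μg/mouse 74 genes were called (0.323% of the genes tested), with 33 higher (0.144%) and 41 lower (0.179%), and from 10 to 40 μg/mouse 1129 (4.93%), with 570 higher (2.49%) and 559 lower (2.44%). The 2 comparisons share the samples at 10 μg/mouse. The mean level at 10 lay between those at 2.5 and 40 in 857 of the 904 genes that rose (94.9%) and in 661 of the 782 that fell (84.5%), against 49.8% of all genes. At 10 μg/mouse the genes that rose had covered a median of 27.6% of their log2 step and the genes that fell 23.6%, and 832 and 680 of them were nearer in level to 2.5 than to 40. On a log2 scale of dose, 10 μg/mouse stands midway, but in mass it stands nearer to 2.5 than to 40. How these shares read thus depends on the scale of dose. The called genes were chosen for a large difference between 2.5 and 40 μg/mouse, which favours a mean at 10 between them. These shares and medians are therefore descriptions, and the share over all genes is not a like reference. The count from 2.5 to 10 was 0 with each hybridisation as a fixed term and 37 without replicate 2 of the samples at 2.5 μg/mouse. Every call from 2.5 to 10 given below was thus lost with hybridisation as a fixed term.

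Transcripts of dividing cells rose almost without exception. Of 30 measured genes of DNA replication and mitosis, 29 rose and 0 fell, with a median log2 fold change of 1.39, and only Pcna, the replication clamp, missed the size limit at 0.31. Ccna2, the cyclin of S and G2 phase, was at levels of 8.30, 8.63 and 8.71 at 2.5, at 9.0, 9.29, 9.31 and 8.99 at 10 and at 10.49, 10.42 and 10.22 at 40 μg/mouse, against 6.98 to 7.88 in controls. No range was shared between neighbouring groups, and the step from 2.5 to 40 was 1.83 ± 0.19 (adjusted p = 8.2e-11). Rrm2, the regulated subunit of ribonucleotide reductase, rose by 1.82, Cenpe, a kinetochore motor, by 1.79, and Plk1, a mitotic kinase, by 1.76 on the same scale. From 2.5 to 10 μg/mouse the median log2 fold change of the 30 genes was 0.45. Only 1 of them, Cdc20, an activator of the anaphase-promoting complex, was called over that part (0.67), whereas 27 were called higher from 10 to 40 μg/mouse. In whole tissue, more dividing cells and more of these transcripts in each cell cannot be told apart, and the same holds for every cell type list below.

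Genes of matrix and wound repair formed the other large group of rises, at 23 of 30 measured genes with 1 fall (median 1.18). Spp1, the secreted phosphoprotein osteopontin, was at levels of 12.20, 11.96 and 12.14 at 2.5, at 13.37, 13.42, 13.83 and 13.48 at 10 and at 14.91, 14.80 and 14.59 at 40 μg/mouse, a log2 fold change of 2.67 ± 0.32 (adjusted p = 2.6e-09). Spp1 was among the genes that had risen at 10 (1.43), and its groups did not overlap. Timp1, the tissue inhibitor of metalloproteinases, was at 12.58, 11.52 and 12.20 at 2.5, at 12.67, 13.13, 13.13 and 12.74 at 10 and at 14.09, 14.05 and 14.79 at 40 μg/mouse, a log2 fold change of 2.21 ± 0.40. Tnc, the provisional matrix protein tenascin C, rose by 2.19 ± 0.18, from levels of 6.97, 6.60 and 6.96 to 9.05, 9.22 and 8.83. Fibrillar collagen followed, with log2 fold changes of 2.03 for Col1a1, 1.20 for Col3a1 and 1.16 for Col1a2, as did the crosslinking enzyme Lox (1.52) and the epidermal growth factor receptor ligands Ereg, Areg (1.41) and Hbegf (1.07). Mmp12, the macrophage elastase, was the 1 member called lower (-0.86, adjusted p = 0.043), a call lost in 12 of 16 alternative settings and with any 1 sample left out, and Ccn2, a growth factor of fibrosis, had a value of -0.18 that was not called.

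Among myeloid transcripts, most of those listed for recruited macrophages and neutrophils rose and most of those listed for resident alveolar macrophages fell. Of 18 measured genes of recruited macrophages 11 rose and 0 fell (median 1.06), led by Arg1, Spp1, Fn1 (fibronectin, 1.73) and Vcan (versican, 1.69), and including the lipid-sensing receptor Trem2 (1.17), the scavenger receptor Msr1 (1.40) and the endotoxin co-receptor Cd14 (1.07). Ly6c2 and Ccr2, surface proteins of newly arrived monocytes, had values of -0.11 and 0.55 that were not called. Spp1 was given above among the genes of matrix and wound repair as well, so these lists are not separate observations. Of 18 measured genes of alveolar macrophages 11 fell and 0 rose (median -0.67).

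Cidec, a lipid droplet protein, was at levels of 9.40, 10.03 and 9.5 at 2.5, at 9.21, 8.82, 9.31 and 9.11 at 10 and at 7.21, 7.43 and 7.56 at 40 μg/mouse, against 10.29 to 10.77 in controls, a log2 fold change of -2.24 ± 0.27 (adjusted p = 2.9e-09). The samples at 40 were clear of all others, while those at 2.5 and 10 lay next to each other below the controls. Fabp1, a fatty acid binding protein, fell by 2.02, Ear2 by 1.85 and Ear10 by 1.75 on the log2 scale, the latter being ribonucleases of a family of near-identical copies whose probes may not tell members apart. Itgax and Siglecf, surface markers of the resident cell, fell as well (-0.90 and -0.59), whereas Marco, Mrc1 and Fabp4 had values of -0.33, 0.08 and 0.24 and were not called.

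Of 23 measured neutrophil genes, 14 rose and 3 fell, with a median of 0.91. Mmp8 was at levels of 7.96, 7.22 and 7.86 at 2.5, at 8.66, 8.70, 8.93 and 8.73 at 10 and at 10.43, 10.50 and 10.49 at 40 μg/mouse, with controls from 7.41 to 7.61, a log2 fold change of 2.79 ± 0.25 (adjusted p = 9.3e-13). The samples at 2.5 μg/mouse stood around the controls and the 2 higher doses stood apart from them and from each other. Ltf (lactoferrin, a granule protein) rose by 1.63, and S100a8 and S100a9, the calprotectin subunits, by 1.57 and 1.08. The 3 neutrophil genes that fell were receptors, namely Fpr1 and Fpr2, which bind formyl peptides, and Csf3r, which binds granulocyte colony-stimulating factor, at -0.79, -0.75 and -0.75. The granule enzymes Mpo and Elane, made in bone marrow, had values of 0.50 and 0.18 and were not called.

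**Figure D3:**
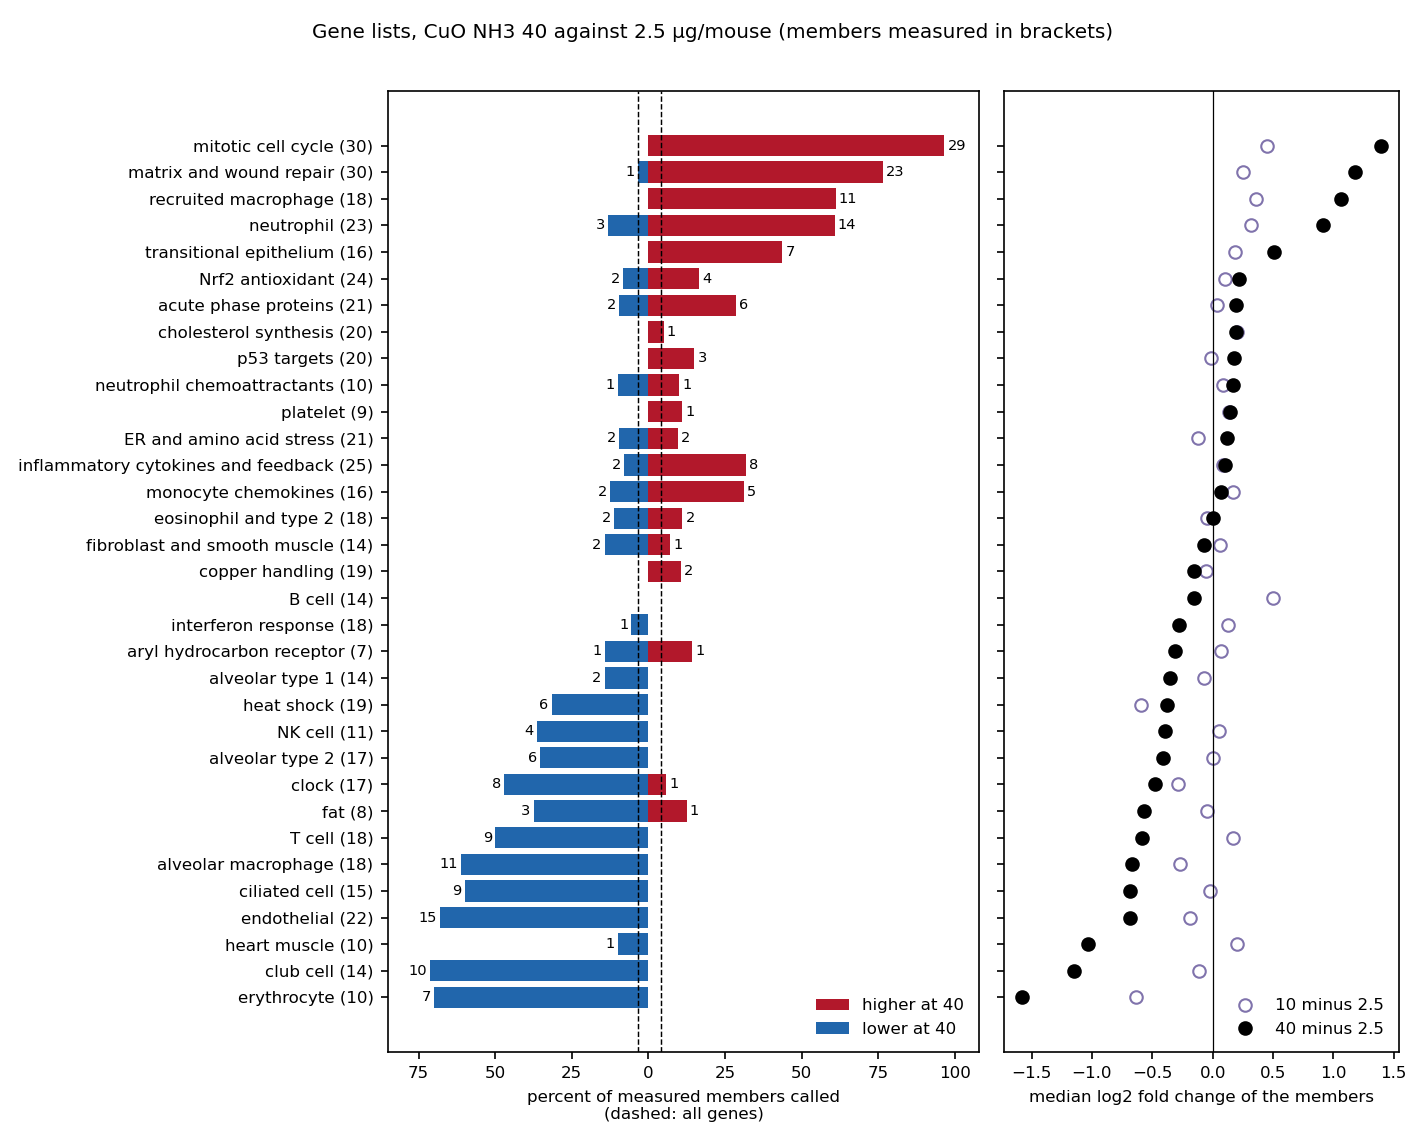
Left, percent of the measured members of each gene list that rose (red, to the right) or fell (blue, to the left) from 2.5 to 40 μg/mouse, with counts at the bars and the share of all genes as dashed lines. Right, the median log2 fold change of the members at 10 (open) and at 40 (filled) against 2.5 μg/mouse; the mitotic list has the highest median (1.39) and the erythrocyte list the lowest (-1.58).

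Chemokines and cytokines moved in both directions. Of 16 measured genes of the monocyte chemokine axis 5 rose and 2 fell (median 0.07). The ligands of the monocyte receptor CCR2 were among the 5: Ccl7 was at levels of 9.81, 8.63 and 9.36 at 2.5 and at 11.08, 10.73 and 11.25 at 40 μg/mouse, a log2 fold change of 1.75 ± 0.47 (adjusted p = 0.0033), and Ccl2 was at 12.23, 11.01 and 11.93 and at 13.08, 13.33 and 13.33, a log2 fold change of 1.52 ± 0.44 (adjusted p = 0.0062). Both had already been above controls at 2.5 μg/mouse, where controls ranged from 6.34 to 7.69 for Ccl7 and from 7.97 to 9.76 for Ccl2. Replicate 2 was the lowest of the samples at 2.5 μg/mouse for both, and without it both calls were lost and 2 genes of the list rose in place of 5. Both calls were also lost with each hybridisation as a fixed term, with adjusted p up to 0.13 for Ccl2 and 0.069 for Ccl7 over the alternatives. Ccl5, a T cell and NK cell chemokine, fell by 1.69, and Cx3cl1, the endothelial and epithelial fractalkine, by 1.33 on the log2 scale. The eosinophil chemoattractant Ccl11 had a value of -0.19 ± 0.28 (adjusted p = 0.70).

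Of 25 measured inflammatory cytokines and feedback genes 8 rose and 2 fell (median 0.10). Il6 rose by 1.44 ± 0.30 and Il11, of the same cytokine family, by 1.37 ± 0.19, and with them the decoy receptor Il1r2 (1.36), the feedback inhibitor Socs3 (0.75) and the epithelial alarmin Il33 (0.69). Il18 and Ptgs2, the inducible cyclooxygenase, fell by 0.79 and 0.59 on the log2 scale, and the number of the list that fell ran from 0 to 3 over the alternatives. Tnf and Il1b had values of -0.22 and 0.53 and were not called. The prostaglandin synthase Ptges rose by 0.80 as the average of its probes, but its brightest probe had the opposite sign (-0.40).

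Among 10 measured neutrophil chemoattractants and growth factors 1 rose, Ppbp (0.60, a call lost in 5 of 16 alternative settings), and 1 fell, Csf2, which encodes the granulocyte-macrophage growth factor on which alveolar macrophages depend. Csf2 was at levels of 8.86, 8.66 and 8.83 at 2.5, at 8.52, 8.59, 8.29 and 8.24 at 10 and at 7.75, 7.52 and 7.89 at 40 μg/mouse, with controls from 7.37 to 7.76, so that the samples at 40 lay within or just above the controls and those at 2.5 and 10 above both. The log2 fold change was -1.06 ± 0.15 (adjusted p = 1.6e-07). For Cxcl1, Cxcl2 and Cxcl5 the values were 0.04, 0.56 and -0.30, none called.

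Among acute phase transcripts, the antiproteases Serpina3n and Serpina3m rose by 1.88 ± 0.27 and 1.79 ± 0.25, and the fibrinogen gamma chain gene Fgg by 1.38 ± 0.20, and 6 of 21 measured genes rose and 2 fell (median 0.19). Saa3, the serum amyloid made in lung, was at levels of 15.83, 14.88 and 15.68 at 2.5, at 15.30, 15.78, 15.60 and 15.72 at 10 and at 15.11, 15.49 and 16.18 at 40 μg/mouse, against 10.06 to 12.40 in controls. All 3 doses of Saa3 shared 1 range well above the controls, and the step was 0.13 ± 0.57 (adjusted p = 0.91), an SE too large to tell a modest rise from a modest fall. Saa1 gave 0.29 ± 0.45.

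Antioxidant and damage responses were small beside these groups. Of 24 measured targets of the oxidant-sensing factor Nrf2, 4 rose and 2 fell (median 0.22). Hmox1, heme oxygenase, was at levels of 11.35, 10.72 and 11.23 at 2.5, at 11.30, 11.17, 11.33 and 11.38 at 10 and at 12.56, 12.70 and 12.67 at 40 μg/mouse, so that it did not separate the lower doses but stood apart at 40 (log2 fold change 1.54 ± 0.35, adjusted p = 0.00054). Srxn1 (sulfiredoxin) rose by 0.80 and the ferritin heavy chain gene Fth1 by 0.69, Nqo1, the quinone reductase often used to read Nrf2 activity, had a value of 0.11 that was not called, and Gstm1, a glutathione transferase of club cells and liver, fell by 1.28. Of 20 p53 targets 3 rose (median 0.18): Gdf15 (1.69), Gadd45g (1.11) and Cdkn1a (0.68). Of 21 genes of endoplasmic reticulum and amino acid stress 2 rose, with the serine synthesis gene Psat1 at 1.15, and 2 fell, with Herpud1 at -0.91. Cholesterol synthesis (1 rise of 20, median 0.19), interferon response (1 fall of 18, median -0.28) and aryl hydrocarbon receptor targets (1 rise and 1 fall of 7, median -0.31) showed few calls. Over the alternatives 0 to 2 cholesterol genes rose, and 0 to 3 interferon and 0 to 2 aryl hydrocarbon receptor genes fell. Over all genes 3.95% rose and 3.41% fell. Here and in other short lists, 1 call was not read as a result about the list.

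Airway epithelial genes fell, Scgb3a2 more than any other gene. Of 14 measured club cell genes 10 fell and 0 rose, with a median of -1.15. Scgb3a2 was at levels of 16.30, 16.05 and 15.91 at 2.5, at 15.96, 15.92, 16.23 and 15.93 at 10 and at 12.87, 12.41 and 13.09 at 40 μg/mouse, against 15.71 to 16.55 in controls. Controls, 2.5 and 10 shared 1 range and the samples at 40 lay far under it, with a log2 fold change of -3.29 ± 0.39 from 2.5 (adjusted p = 2.6e-09), about 9.81-fold. Cyp2f2, the cytochrome P450 that defines club cells, was at 16.03, 15.91 and 15.90 at 2.5, at 15.59, 15.56, 15.74 and 15.52 at 10 and at 13.71, 13.71 and 13.97 at 40 μg/mouse, a log2 fold change of -2.16 ± 0.28. Cbr2, a carbonyl reductase, fell by 1.84, and Scgb1a1, the most abundant club cell secretoglobin, fell by 0.81 from a mean level of 17.37 ± 0.10 to 16.55 ± 0.33 (SD, n = 3). Bpifa1, a secreted antimicrobial protein of the upper airway, was at 12.03, 10.36 and 10.36 at 2.5 and at 9.11, 9.15 and 8.96 at 40, and its call (adjusted p = 0.041) was lost in 6 of 16 alternative settings.

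Of 15 measured ciliated cell genes 9 fell (median -0.68). Tppp3, a tubulin polymerisation protein of cilia, was at levels of 13.84, 14.08 and 13.88 at 2.5, at 13.66, 13.47, 13.57 and 13.52 at 10 and at 12.33, 12.32 and 12.32 at 40 μg/mouse, a log2 fold change of -1.61 ± 0.17 (adjusted p = 5.2e-11). The dynein heavy chain gene Dnah5 fell by 1.28 and the dynein light chain gene Dynlrb2 by 1.08, and Foxj1, the factor that specifies ciliated cells, had a value of -0.53, under the size limit. Club and ciliated lists had medians of -0.11 and -0.03 from 2.5 to 10 μg/mouse, with no gene called there.

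Alveolar epithelium changed less. Of 17 measured alveolar type 2 genes 6 fell, led by Lyz1 (lysozyme, -1.55) and Sftpa1 (surfactant protein A, -0.91), and Sftpc had a value of 0.14. Of 14 alveolar type 1 genes 2 fell, Clic5 (-1.02) and Emp2 (-0.62, a call lost in 4 of 16 alternative settings), and Ager had a value of -0.05. In contrast 7 of 16 measured genes of transitional epithelium, the keratin-rich state that epithelium passes through in repair, rose and 0 fell (median 0.50). Sprr1a, a cornified envelope protein, was at levels of 6.09, 6.15 and 6.54 at 2.5 and at 8.63, 8.30 and 8.80 at 40 μg/mouse, at least 5.0-fold higher because it was not well above background in any sample at 2.5. Sfn (stratifin) rose by 1.69, the tight junction gene Cldn4 by 1.49 and Clu (clusterin) by 1.46, while Krt8 had a value of 0.40 that was not called.

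Of 22 measured endothelial genes 15 fell and 0 rose, with a median of -0.68. Ptprb, the endothelial receptor phosphatase, was at levels of 15.32, 15.25 and 15.11 at 2.5, at 15.00, 14.74, 14.73 and 15.01 at 10 and at 13.91, 14.10 and 14.00 at 40 μg/mouse, a log2 fold change of -1.23 ± 0.17 (adjusted p = 7.6e-08). The junction gene Cdh5 fell by 0.71 and the growth factor receptor gene Kdr by 0.83, whereas Vwf and Emcn had values of -0.35 and -0.10. Igfbp3, which encodes an insulin-like growth factor carrier, was among the 12 deepest falls over all genes: 12.16, 12.18 and 12.28 at 2.5, 11.22, 10.98, 10.94 and 11.05 at 10 and 9.79, 9.65 and 9.63 at 40 μg/mouse, a log2 fold change of -2.51 ± 0.19 that was called over both parts of the step (-1.16 and -1.36). For Igfbp3 the call from 2.5 to 10 was lost with each hybridisation as a fixed term. Colq, the collagenous tail subunit of acetylcholinesterase, fell by 2.36 on the log2 scale, with a value of -0.18 from 2.5 to 10 μg/mouse that was not called. Of 14 fibroblast and smooth muscle genes 1 rose, Des (desmin, 0.98), and 2 fell, Inmt (-0.77) and Npnt (-0.61), whose calls were lost in 3 and 5 of 16 alternative settings.

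Transcripts of T and NK cells fell from 2.5 to 40 μg/mouse, while those of B cells differed mainly from the samples at 10. Of 18 measured T cell genes 9 fell and 0 rose (median -0.59), including the surface proteins Cd6 (-0.95) and Cd5 (-0.87) and the lymph node homing receptor Ccr7 (-0.84), while Cd4 and Cd3e had values of -0.18 and -0.20. Of 11 NK cell genes 4 fell, led by Gzma (granzyme A), which was at levels of 11.40, 11.15 and 11.48 at 2.5 and at 10.11, 9.31 and 9.87 at 40 μg/mouse (log2 fold change -1.58 ± 0.23, adjusted p = 2.9e-07).

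No B cell gene of 14 measured was called between 2.5 and 40 (median -0.15), yet 9 fell between 10 and 40 and 1, Fcmr, rose between 2.5 and 10. Ms4a1 (CD20) was at levels of 9.59, 8.90 and 8.98 at 2.5, at 10.21, 10.07, 9.65 and 10.13 at 10 and at 8.65, 8.17 and 9.15 at 40 μg/mouse, with controls from 9.40 to 10.61. The samples at 10 stood in the range of the controls and above both other doses.

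Transcripts of red cells fell over both parts of the step. Of 10 measured erythrocyte genes 7 fell and 0 rose from 2.5 to 40 μg/mouse (median -1.58), 4 fell already from 2.5 to 10, and 6 fell from 10 to 40. The calls from 2.5 to 10 were lost with each hybridisation as a fixed term. Hbb-bt, a beta globin gene, was at levels of 15.94, 16.04 and 15.91 at 2.5, at 14.80, 14.96, 14.88 and 14.39 at 10 and at 13.23, 13.47 and 13.51 at 40 μg/mouse, against 15.73 to 16.64 in controls, a log2 fold change of -2.56 ± 0.27 (adjusted p = 1e-10). The samples at 2.5 lay within the controls and each higher dose lay clear below. Alas2, the erythroid enzyme of heme synthesis, fell by 2.39, and Hba-a1, an alpha globin gene, by 1.67 on the log2 scale, the globin genes being near-identical copies that probes may not tell apart. The summed linear intensity of the 10 genes was 365412 to 547070 in controls, 406599 to 436806 at 2.5, 209738 to 339986 at 10 and 101819 to 139570 at 40 μg/mouse, and Rhag and Epb42, membrane proteins of red cells and their precursors, were not well above background in any sample at 2.5 or 40. The part of blood content in the other results was not tested.

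Transcripts of neighbouring tissue varied too. Of 10 heart muscle genes 1 fell, Myh6 (-1.66), with a median of -1.03 and a summed intensity of 7720 to 45155 in controls, 8071 to 14853 at 2.5 and 4643 to 5967 at 40 μg/mouse. The call of Myh6 was lost with each hybridisation as a fixed term. Of 8 fat genes 3 fell and 1 rose, with 1 to 4 falling over the alternatives. Cfd, the adipocyte protease adipsin, was at levels of 9.74, 9.19 and 9.61 at 2.5, at 9.73, 8.66, 9.89 and 8.58 at 10 and at 6.67, 5.99 and 6.33 at 40 μg/mouse, with controls from 8.70 to 11.09. The samples at 40 were below every other sample, and the part that attached heart or fat tissue had in the step was not tested. Of 9 platelet genes 1 rose, Pf4 (0.87), a call lost with each hybridisation as a fixed term.

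Circadian output genes fell together. Of 17 measured clock genes 8 fell and 1 rose (median -0.48). Dbp, an output factor of the clock, was at levels of 13.38, 13.82 and 13.35 at 2.5, at 13.02, 12.53, 12.74 and 12.87 at 10 and at 11.28, 11.62 and 11.17 at 40 μg/mouse, against 14.06 to 14.68 in controls, so that it was lower in each group than in the one before (log2 fold change from 2.5 to 40 of -2.16 ± 0.26, adjusted p = 3.3e-09). Nr1d1 and Nr1d2, which encode the REV-ERB repressors, fell by 1.66 and 1.22, Hlf by 1.42, Per3 by 0.97 and Per2 by 0.84 on the log2 scale. Nfil3, a repressor of the same DNA sites as Dbp, rose by 1.07. For Arntl, which encodes the activator BMAL1, and Clock, the values were 0.25 and -0.07, neither called. The hour at which each mouse was sacrificed was not given in the sources used here, and its part in these values was not tested.

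Heat shock genes did not follow the order of dose, and several were higher at 2.5 μg/mouse than at 10. Of 19 measured chaperones and co-chaperones 6 fell and 0 rose from 2.5 to 40 μg/mouse (median -0.38), 9 fell from 2.5 to 10 (median -0.60), and 2 rose from 10 to 40. With each hybridisation as a fixed term the calls from 2.5 to 10 were lost. Dnajb1, a co-chaperone of HSP70, was at levels of 13.56, 13.65 and 13.46 at 2.5, at 12.15, 12.24, 12.25 and 12.28 at 10 and at 12.24, 12.16 and 12.49 at 40 μg/mouse, against 12.44 to 12.93 in controls, with a log2 fold change from 2.5 to 40 of -1.26 ± 0.19 (adjusted p = 5.9e-07). Hsph1, a large HSP70 relative, was at 9.75, 9.87 and 9.77 at 2.5, at 8.56, 8.59, 8.42 and 8.51 at 10 and at 8.91, 8.81 and 8.86 at 40 μg/mouse. For both genes the 3 samples at 2.5 stood above every other sample, on 3 slides and in both dyes, and each was also above controls (log2 fold changes of 0.85 and 1.23), where 398 genes were called in all (1.74%), 324 of them higher (1.41%) and 74 lower (0.323%). The inducible HSP70 genes Hspa1a and Hspa1b were not called from 2.5 to 40, at 0.89 ± 0.47 and -0.37 ± 0.49, but rose from 10 to 40 by 1.90 and 1.78.

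Promoters of the heat shock genes that fell are shown for Hsph1 and Dnaja1, a further co-chaperone that fell by 0.77, because both held a match to the heat shock element. They are from RefSeq (GRCm38.p6), 250 bases before the gene's start on its own strand: Hsph1 at chr5:149636337-149636586 on the minus strand and Dnaja1 at chr4:40722218-40722467 on the plus strand. Capitals mark GAANNTTC or TTCNNGAA, patterns that read alike on both strands.
Hsph1: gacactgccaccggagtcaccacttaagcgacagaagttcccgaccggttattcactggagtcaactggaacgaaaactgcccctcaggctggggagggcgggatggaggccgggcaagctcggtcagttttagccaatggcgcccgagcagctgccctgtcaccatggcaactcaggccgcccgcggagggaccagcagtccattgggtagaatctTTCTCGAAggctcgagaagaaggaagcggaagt
Dnaja1: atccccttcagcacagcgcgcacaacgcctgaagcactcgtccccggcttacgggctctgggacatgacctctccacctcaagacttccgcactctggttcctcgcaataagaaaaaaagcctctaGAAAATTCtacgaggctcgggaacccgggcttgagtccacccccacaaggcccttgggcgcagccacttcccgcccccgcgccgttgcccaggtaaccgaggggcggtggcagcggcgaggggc
The match began at position -33 in Hsph1 and -124 in Dnaja1. Dnajb1 and Hspa4l held 0 matches in this window, Hspa8 and Hsp90ab1 had no entry, and 12.8% of 32851 mouse promoters held at least 1.

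**Figure D4:**
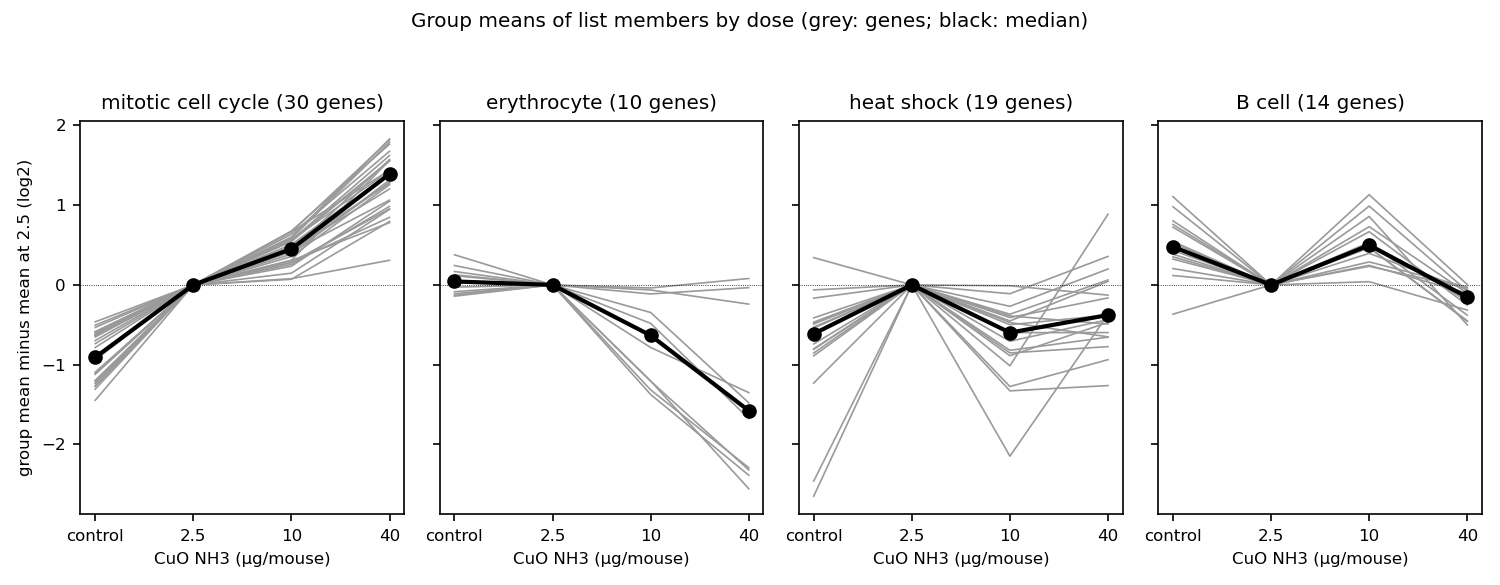
Group mean minus the mean at 2.5 μg/mouse (log2, y axis) for the measured genes of 4 lists (grey) and their median (black), in controls and at 2.5, 10 and 40 μg/mouse (x axis). The medians at 10 and 40 are 0.45 and 1.39 for mitotic, -0.63 and -1.58 for erythrocyte, -0.60 and -0.38 for heat shock and 0.50 and -0.15 for B cell genes.

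Type 2 transcripts did not move as a group, with 2 rises and 2 falls among 18 measured genes (median -0.00). Retnlb was one of the rises and Retnla, its macrophage and epithelial relative, the other (1.25 ± 0.44, adjusted p = 0.029), a call lost in 6 of 16 alternative settings. Ccl17, a chemokine of type 2 T cells, fell by 0.87. Clca1, a goblet cell secreted protein, was at levels of 10.40, 9.70 and 6.07 at 2.5 and at 5.10, 5.69 and 5.82 at 40 μg/mouse, with controls from 6.22 to 8.44, a called log2 fold change of -3.19 ± 0.95. Replicates 1 and 2 at 2.5 stood far above the other samples and replicate 3 did not, and the call was lost in 4 of 16 alternative settings. Il4, Il5 and Il13, the type 2 cytokines, had values of 0.20, -0.06 and -0.16. Tff2 and Lypd2, secreted and surface proteins of airway and gastric type mucosa, were among the 12 deepest falls at -2.31 ± 0.48 and -2.27 ± 0.24.

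The same dose step was then measured in other mice, to ask whether it depended on the allergen challenge or on the surface of the particle. The genes compared were chosen by their calls in PBS-challenged mice exposed to CuO NH3, which raises their size there, so the values elsewhere are set beside them as descriptions and the difference itself was tested across all genes. In OVA-challenged mice exposed to CuO NH3 (3 samples at each dose), 728 genes were called between 2.5 and 40 μg/mouse (3.18%), of which 300 rose (1.31%) and 428 fell (1.87%). The step differed from that in PBS-challenged mice in 670 genes (2.92%), being higher in 286 (1.25%) and lower in 384 (1.68%). Of the 904 genes that rose in PBS-challenged mice 225 rose and 2 fell in OVA-challenged mice, with a median of 0.38 against 0.84, and of the 782 that fell 157 fell and 1 rose, with a median of -0.27 against -0.76. The difference in step was called in 223 and 199 of them. With each hybridisation as a fixed term the 670 fell to 148, and the differences of Muc5ac and Scgb3a2 given next were no longer called. That of Muc5ac was also lost without OVA-challenged replicate 2 at 2.5 μg/mouse.

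Arg1 showed the widest difference in step by challenge among the genes named. In OVA-challenged mice it was at levels of 13.00, 14.19 and 13.51 at 2.5 and at 13.28, 14.11 and 13.95 at 40 μg/mouse, a step of 0.22, and the difference from PBS-challenged mice was -3.52 (adjusted p = 0.0024). Both OVA-challenged doses lay above all PBS-challenged samples exposed to CuO NH3. Of the mitotic genes 4 of 30 rose in OVA-challenged mice (median 0.39) and 24 differed in step, with Rrm2 at 11.06, 11.35 and 11.08 at 2.5 and at 11.38, 11.42 and 11.66 at 40 μg/mouse, a difference of -1.49.

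Fxyd4, an ion transport regulator, rose by 1.67 in PBS-challenged mice but after OVA challenge was at 10.96, 11.75 and 10.87 at the low and at 10.38, 9.94 and 9.49 at the high dose, with a difference of -2.92. The goblet cell genes Muc5ac, a gel-forming mucin, and Fcgbp, a mucus-binding protein, were at 6.32 to 7.86 and at 7.33 to 8.49 in the PBS-challenged samples at 2.5 and 40 μg/mouse. After OVA challenge Muc5ac went from 10.35, 11.52 and 11.30 at 2.5 to 7.36, 7.36 and 7.81 at 40 μg/mouse and Fcgbp from 10.82, 11.55 and 11.50 to 7.89, 7.88 and 8.13, with differences in step of -2.77 and -2.87.

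Scgb3a2 differed in the other direction by 2.56. In the challenged mice it was at 14.26, 14.07 and 14.39 at the low and at 13.48, 13.93 and 13.11 at the high dose, which lay below the PBS-challenged samples at 2.5 and above those at 40. Of the lymphocyte genes, 11 of 18 T cell, 11 of 14 B cell and 8 of 11 NK cell genes fell in OVA-challenged mice. In PBS-challenged mice 9, 0 and 4 of these lists had fallen over the same step. The difference in step was called for 1, 3 and 0 of them.

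CuO PEG, the derivative coated with polyethylene glycol, gave 600 called genes between the same doses in PBS-challenged mice (2.62%), of which 449 rose (1.96%) and 151 fell (0.659%). Its step differed from that of CuO NH3 in 625 genes (2.73%), being higher in 354 (1.55%) and lower in 271 (1.18%). With each hybridisation as a fixed term 40 genes differed, without Retnlb and Scgb3a2. Of the 904 genes that rose with CuO NH3 299 rose and 2 fell with CuO PEG (median 0.42), and of the 782 that fell 87 fell and 17 rose (median -0.27). Retnlb was at levels of 6.17, 6.36 and 6.47 at 2.5 and 7.11, 7.00 and 7.27 at 40 μg/mouse of CuO PEG, a step of 0.79 that differed from that of CuO NH3 by -3.62 (adjusted p = 1.4e-05).

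Saa3 was at 11.08, 10.94 and 10.73 at 2.5 and at 15.37, 14.34 and 15.18 at 40 μg/mouse of CuO PEG, so that its step was 3.92 above that of CuO NH3, whose samples were all between 14.88 and 16.18. Saa1 gave a difference of 3.23 and Cxcl5, an epithelial neutrophil chemoattractant, one of 4.18. For these 3 genes both doses of CuO NH3 overlapped CuO PEG at 40 μg/mouse, and CuO PEG at 2.5 stood below them all. Csf2 rose with CuO PEG, from 7.59, 7.46 and 7.57 to 8.57, 8.91 and 8.75, while it fell with CuO NH3 (difference 2.27). Scgb3a2 was at 16.30, 15.94 and 15.98 and at 15.71, 15.63 and 15.52, a difference in step of 2.84. The medians of the mitotic and alveolar macrophage lists were 1.23 and -0.67 with CuO PEG beside 1.39 and -0.67 with CuO NH3, and those of the club and ciliated lists were -0.48 and -0.14 beside -1.15 and -0.68. Equal masses of these materials carry unequal copper, and surface and copper dose cannot be told apart in this comparison.

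Core CuO, the unmodified particle, gave 1286 called genes (5.61%), of which 702 rose (3.06%) and 584 fell (2.55%). No gene was called for a difference in step from CuO NH3 with limma at an adjusted p under 0.05, while 1243 genes had an unadjusted p under 0.05 and other settings called 0 to 2. Of the 904 genes that rose with CuO NH3 601 rose with core CuO (median 0.70), and of the 782 that fell 398 fell (median -0.60), with 0 in the opposite direction. The absence of calls does not show that the materials act alike, since the SE of the difference had a median of 0.16 and was larger in variable genes. The core CuO samples of Scgb3a2 were at 16.25, 16.13 and 16.38 at 2.5 and at 15.47, 14.05 and 14.04 at 40 μg/mouse, a step of -1.73 beside -3.29 and a difference of 1.56 ± 0.58. The core CuO samples lay on other slides than those of CuO NH3, unlike the samples of CuO PEG and of OVA-challenged mice.

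**Figure D5:**
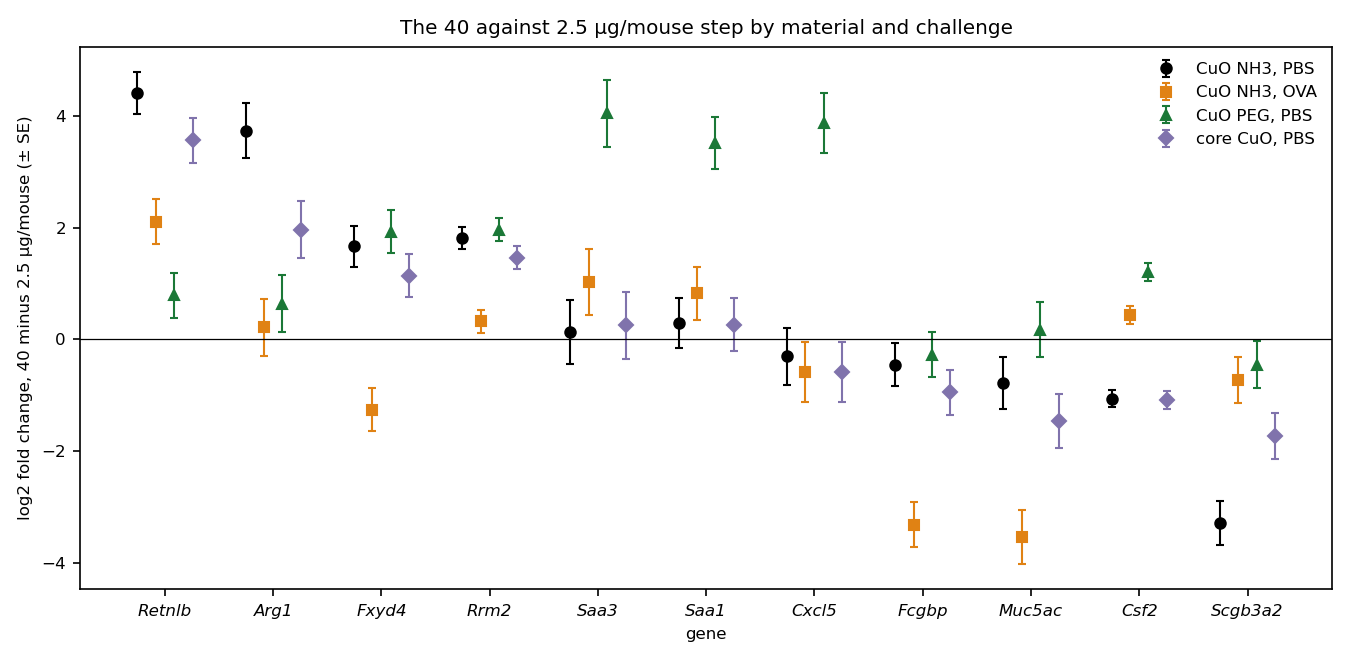
Log2 fold change from 2.5 to 40 μg/mouse (y axis, ± SE) of 11 genes (x axis) for CuO NH3 in PBS- and OVA-challenged mice and for CuO PEG and core CuO in PBS-challenged mice. The steps of Saa3, Saa1 and Cxcl5 lie between -0.59 and 0.29 with CuO NH3 and core CuO in PBS-challenged mice, between -0.59 and 1.03 with CuO NH3 in OVA-challenged mice and at 3.52 to 4.05 with CuO PEG, and those of Muc5ac and Fcgbp are lowest in OVA-challenged mice.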

How the data were processed

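Lung RNA of 89 pooled samples was hybridised to 46 arrays on 6 slides, each array carrying up to 2 samples, in Cy3 and Cy5. The deposited scanner files held foreground and background intensities, extracted per the file headers with Agilent Feature Extraction 12.0.2.2. The authors' methods name log2 transformation, quantile normalization and removal of labelling and array effects, and the deposited values are on the log2 scale. Here the median foreground intensities of 62976 spots per array were set to log2, quantile normalized between channels, averaged over spots and then over probes of a gene (32994 of 56605 probes had a gene), giving 22911 genes. Differences were fitted with limma 3.58.1 in R 4.3.3 over 26 groups with dye, slide and array position as terms (50 residual degrees of freedom) and Benjamini-Hochberg adjustment. The deposited values gave the same 1686 calls and equal counts in the other comparisons, so they are not a separate check of the processing. The authors' removal of labelling and array effects does not appear to be in them. Other tools were the R package data.table (version 1.17.8), Python 3.11.15, pandas 2.3.3 and matplotlib 3.10.9. The scripts were tested on simulated data.

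Some labels give doses in mg and others in μg, and μg is used here. The samples compared and the 33 gene lists were chosen with earlier results of these data known. Genes named with values were the 12 largest rises and falls with an official symbol, samples that did not overlap and a probe above background in all samples of one group, up to 4 called members of each list or 3 where none was called, the genes Ccl2, Ccl7 and Ccl11, and the 4 largest differences between steps. Further members and Clca1 among the deepest falls were named after their values were seen. Replicate numbers coincided with slides for CuO NH3 at 2.5 and 40 μg/mouse in PBS-challenged mice, though not in every group, and slide was a term of the fit. These same-numbered samples correlated in their deviations by 0.092, 0.13 and 0.22, and differently numbered ones by -0.21 to 0.087. The 0.22 is that of replicate 3, whose samples at 2.5 (Cy3) and 40 μg/mouse (Cy5) lay on the same array. That shared array was not a term of the main fit, and fits with arrays as a term are among the alternatives. Beyond the slide term the same-numbered samples were not treated as pairs. The number of arrays limits the precision. Alternatives were other technical terms, background correction, normalization, probe filters and probe choices, the deposited values, and each sample left out in turn.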

Additional observations from a re-analysis of the deposited data

Results flagged for a closer look

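The step from 2.5 to 40 μg/mouse of CuO NH3 differed by challenge in 670 genes (2.92%) and from that of CuO PEG in 625 genes (2.73%), by a test of the difference itself in limma. With each hybridisation as a fixed term these counts were 148 and 40. OVA-challenged minus PBS-challenged, the difference in step was -3.52 for Arg1, -2.92 for Fxyd4, -2.87 for Fcgbp, -2.77 for Muc5ac, -1.49 for Rrm2, 2.56 for Scgb3a2 and 1.5 for Csf2. CuO PEG minus CuO NH3, it was -3.62 for Retnlb, 4.18 for Cxcl5, 3.92 for Saa3, 3.23 for Saa1, 2.84 for Scgb3a2 and 2.27 for Csf2. With each hybridisation as a fixed term, the differences of Muc5ac and Scgb3a2 by challenge and of Retnlb and Scgb3a2 by material were not called.

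Dixon's test sets the gap between an extreme sample and its nearest neighbour against the range of the group. By it a single sample stood apart in 11 of 125 genes in the controls and in 6 of 125 at 10 μg/mouse. Chance gives about 1 in 20, so the 6 at 10 μg/mouse are no more than chance gives. The 125 genes held close paralogs and are not independent trials. The gap itself can be small, as for Herpud1 at 10 μg/mouse, with 10.82 against a nearest 10.64. In the controls, replicate 4 was at log2 intensities of 7.25 for Dmbt1, 12.12 for Mt2, 9.43 for Saa1, 14.57 for Emp2 and 13.36 for Etv5. Replicate 6 was at 6.85 for Retn, 9.65 for Myh6 and 10.31 for Lypd2. Replicate 1 was at 8.15 for Hmox1, replicate 2 at 10.23 for Srxn1 and replicate 3 at 11.99 for Colq. At 10 μg/mouse, replicate 1 was at 8.58 for Klrd1, 10.82 for Herpud1 and 10.04 for Nr1d1, replicate 3 at 8.08 for Vcan and 16.23 for Scgb3a2, and replicate 4 at 12.80 for Ear2.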

How the results depend on the processing

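The count from 2.5 to 40 μg/mouse ranged from 1504 with normexp background correction to 2061 with the brightest probe of each gene, and from 1641 to 1773 with 1 sample left out. With each hybridisation as a fixed term, 1346 of the 1686 calls were shared (79.8%), 0 genes were called from 2.5 to 10, 699 from 10 to 40, 148 for the difference by challenge (26 higher and 122 lower, against 286 and 384) and 40 for the difference of CuO PEG from CuO NH3. From 2.5 to 10 μg/mouse, 44 genes were called when arrays formed a random block and 39 with dye alone. With 1 sample left out that count ran from 37 (without replicate 2 at 2.5) to 82, the difference by challenge from 344 (without OVA-challenged replicate 2 at 2.5) to 871, and the difference of core CuO from 0 to 2, with 2 also for the brightest probe. The difference by challenge was 414 without PBS-challenged replicate 2 at 2.5 and 426 without OVA-challenged replicate 1 at 40.

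With the replicate block, 1664 genes were called from 2.5 to 40 and 47 from 2.5 to 10, and none of the 125 named genes changed its call.

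Of 116 named genes called, 90 kept the call in all 16 alternatives, and Chia1, Ddit3, Bpifa1, Pdia4, Retn and Retnla lost it in 6 or 7. The sign turned with hybridisation as a fixed term for Saa1 (-0.23), Saa3 (-0.36), Ccl11 (0.085) and Cxcl5 (0.011), none of them called, and for Ptges with its brightest probe (-0.40). With 1 sample left out, Saa1 ran from -0.076 to 0.55, Saa3 from -0.25 to 0.45 and Ccl11 from -0.42 to 0.20. The step differences named were recomputed as well, an alternative chosen after seeing the data, and with hybridisation as a fixed term those of Muc5ac and Scgb3a2 by challenge and of Retnlb and Scgb3a2 by material were no longer called, nor was that of Muc5ac without OVA-challenged replicate 2 at 2.5. The cause was not tested. Precision is limited by 3 pools per group and by spots near background.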
